A study of Homo sapiens with 15 samples.

Results

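Amino acid transporters were examined in HGrC1 cells, an immortalised human granulosa cell line, through 10 genes chosen by symbol: SLC7A11, SLC7A5, SLC3A2, SLC7A1, SLC1A4, SLC1A5, SLC38A1, SLC38A2, SLC6A9 and SLC43A1. All 10 were found among the 37787 genes of the count table, and all 10 passed the low-count filter that left 13868 genes for testing. RNA from 15 libraries was sequenced, 3 for each of 5 conditions, from cells that were lipofected for 4 h and then kept serum-free for 24 h. The conditions were Vectors (empty plasmids), Smad3 - FoxL2wt (here FOXL2 WT), Smad3 - FoxL2C134W (FOXL2 C134W), Smad3 - FoxL2wt - Foxo13A (FOXL2 WT + FOXO1) and Smad3 - FoxL2C134W - Foxo13A (FOXL2 C134W + FOXO1). FOXL2 is a forkhead factor of granulosa cells, C134W its mutation in adult granulosa cell tumors, SMAD3 a transducer of TGF-beta signals, and FOXO1-3A a constitutively active nuclear form of FOXO1. All conditions used cells of 1 line at passage 14 that were transiently transfected, so each library averages transfected and untransfected cells, and fewer cells with a response cannot be told apart from less RNA per cell. Vectors received none of the 3 factors, so the parts of SMAD3 and FOXL2 in a difference from Vectors cannot be told apart.

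Amino acid transporters of the plasma membrane belong to several solute carrier families. SLC3A2 is the heavy chain that brings light chains such as SLC7A5 and SLC7A11 to the cell surface, and exchangers of this kind trade one amino acid for another. Sodium-coupled carriers such as SLC38A1 and SLC38A2 load the cell with the neutral amino acids that the exchangers use. Several of these genes are known targets of ATF4, the factor that is translated when amino acids run short or proteins misfold. In granulosa cells, amino acid uptake also serves the oocyte, which receives some amino acids through its surrounding cells.

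The transfected genes were followed first. FOXL2 stood at 8.73 ± 0.704 CPM (estimated counts scaled to library size with TMM, mean ± SD, n = 3) in Vectors, 561 ± 5.89 CPM under FOXL2 WT, 147 ± 27.0 CPM under FOXL2 C134W, 384 ± 14.97 CPM under FOXL2 WT + FOXO1 and 152 ± 20.1 CPM under FOXL2 C134W + FOXO1. SMAD3 stood in the same order of conditions at 249 ± 11.99, 2768 ± 154, 843 ± 37.4, 969 ± 10.8 and 392 ± 16.9 CPM. FOXO1 stood at 13.2 ± 0.867, 12.2 ± 0.661, 11.99 ± 0.423, 117 ± 14.5 and 43.2 ± 4.06 CPM. The FOXL2 forms therefore came with different amounts of FOXL2 and SMAD3 RNA, and form and RNA amount cannot be told apart in any comparison between them. These are RNA levels. By immunoblot of cultures grown in parallel, the paper reports that protein of both FOXL2 forms and of FOXO1 was balanced. SMAD3 was not among the proteins it names there. Library totals ran from 14962245 to 25339094 estimated counts. Of 16 granulosa markers, GATA4 (133 to 149 CPM as condition means), WT1 (41.6 to 44.5 CPM) and the keratins KRT8 and KRT18 were well detected, whereas FSHR had 0 counts in every library, which allows up to 3 counts per library, and CYP19A1 and INHA had at most 4. AMH, AMHR2, NR5A2, INHBB, HSD17B1 and STAR were low, at 0.297 to 2.98 CPM in Vectors. The summed granulosa markers, which include the transfected FOXL2, ran from 4449 to 4575 CPM in Vectors and from 5145 to 5289 CPM under FOXL2 WT. Most of this sum was KRT8 and KRT18 (2633 and 1672 CPM in Vectors). Some genes used as markers of other cell types also differed between conditions in this granulosa cell line. The 5 stromal markers summed to 1516 to 1584 CPM in Vectors and 1064 to 1206 CPM under FOXL2 WT, nearly all of it COL1A1, which was lower in all 4 transfected conditions, while CYP17A1 was at 1 count or fewer. The 2 leukocyte markers summed to 103 to 117 CPM in Vectors and 92.0 to 96.9 CPM under FOXL2 WT, with CD68 making up the sum and PTPRC at 5 counts or fewer. The 4 epithelial markers summed to 401 to 406 against 346 to 380 CPM and the 3 endothelial markers to 6.28 to 7.15 against 3.76 to 6.37 CPM. The part of these markers in the transporter differences was not tested.

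Per length, the transporters differed widely in level. In Vectors, SLC38A2 had 419 ± 22.2 TPM and SLC3A2 363 ± 20.1 TPM (level per transcript length and library size, mean ± SD, n = 3), the highest of the 10. SLC7A5 followed at 128 ± 4.30 TPM, then SLC1A5 at 92.7 ± 1.94 TPM, SLC38A1 at 70.2 ± 0.786 TPM, SLC7A11 at 37.9 ± 1.70 TPM and SLC7A1 at 29.5 ± 0.313 TPM. SLC1A4 at 14.6 ± 0.445 TPM and SLC6A9 at 14.5 ± 1.07 TPM did not differ beyond their spread, and SLC43A1 was lowest at 6.55 ± 0.576 TPM. The lowest estimated count of any transporter in any library was 172, for SLC43A1, so none lay near the detection floor.

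Promoters are shown for 3 genes that differed in their calls: SLC7A1, which was higher than Vectors in all 4 transfected conditions, SLC43A1, which was called in 1 of them, and SLC38A2, which was not called higher in any. For each gene the RefSeq (GRCh38.p14) start nearest its leading transcript was taken, which gave 9 of the 10 promoters, all but SLC7A11. For SLC38A1 that start lay 1056 bases and for SLC6A9 285 bases from the leading transcript. The 250 bases before the start were searched on both strands for TGATGNAA (C/EBP-ATF response element core, in 3.14% of 35116 promoters), TGACNNNGC (antioxidant response element core, 10.9%), TGTTTAC (forkhead core, 2.98%) and CAGACA (SMAD box, 13.6%). None of the matches found overlapped another. SLC7A1 had the antioxidant response element core TGACGCGGC starting 85 bases before the start, and SLC43A1 had the forkhead core on the other strand, GTAAACA, starting 24 bases before it. The other 7 promoters, SLC38A2 included, had none of these letters in this window. The genes shown thus include both promoters with a match. SLC7A5, SLC1A4, SLC1A5 and SLC38A1 were also higher than Vectors in all 4 transfected conditions and had no match. Each sequence below runs 5′ to 3′ on the gene's strand (minus in all 3), with the matched motif in capitals, and covers chr13:29595689-29595938, chr11:57514910-57515159 and chr12:46372774-46373023.
SLC7A1: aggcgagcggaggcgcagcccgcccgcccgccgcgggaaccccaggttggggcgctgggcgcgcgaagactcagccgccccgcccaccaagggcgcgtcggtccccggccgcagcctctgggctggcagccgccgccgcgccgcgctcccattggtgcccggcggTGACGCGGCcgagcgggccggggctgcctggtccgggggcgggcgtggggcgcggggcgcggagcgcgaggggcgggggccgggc
SLC43A1: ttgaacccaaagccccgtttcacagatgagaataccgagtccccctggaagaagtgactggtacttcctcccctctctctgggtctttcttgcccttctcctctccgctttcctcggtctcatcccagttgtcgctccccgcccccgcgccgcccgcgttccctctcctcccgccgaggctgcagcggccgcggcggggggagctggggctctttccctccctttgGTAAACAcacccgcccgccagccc
SLC38A2: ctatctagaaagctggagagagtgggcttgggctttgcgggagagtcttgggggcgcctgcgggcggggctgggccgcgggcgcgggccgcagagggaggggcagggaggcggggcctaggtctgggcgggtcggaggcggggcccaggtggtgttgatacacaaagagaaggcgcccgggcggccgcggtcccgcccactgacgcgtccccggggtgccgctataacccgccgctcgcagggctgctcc

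**Figure D1:**
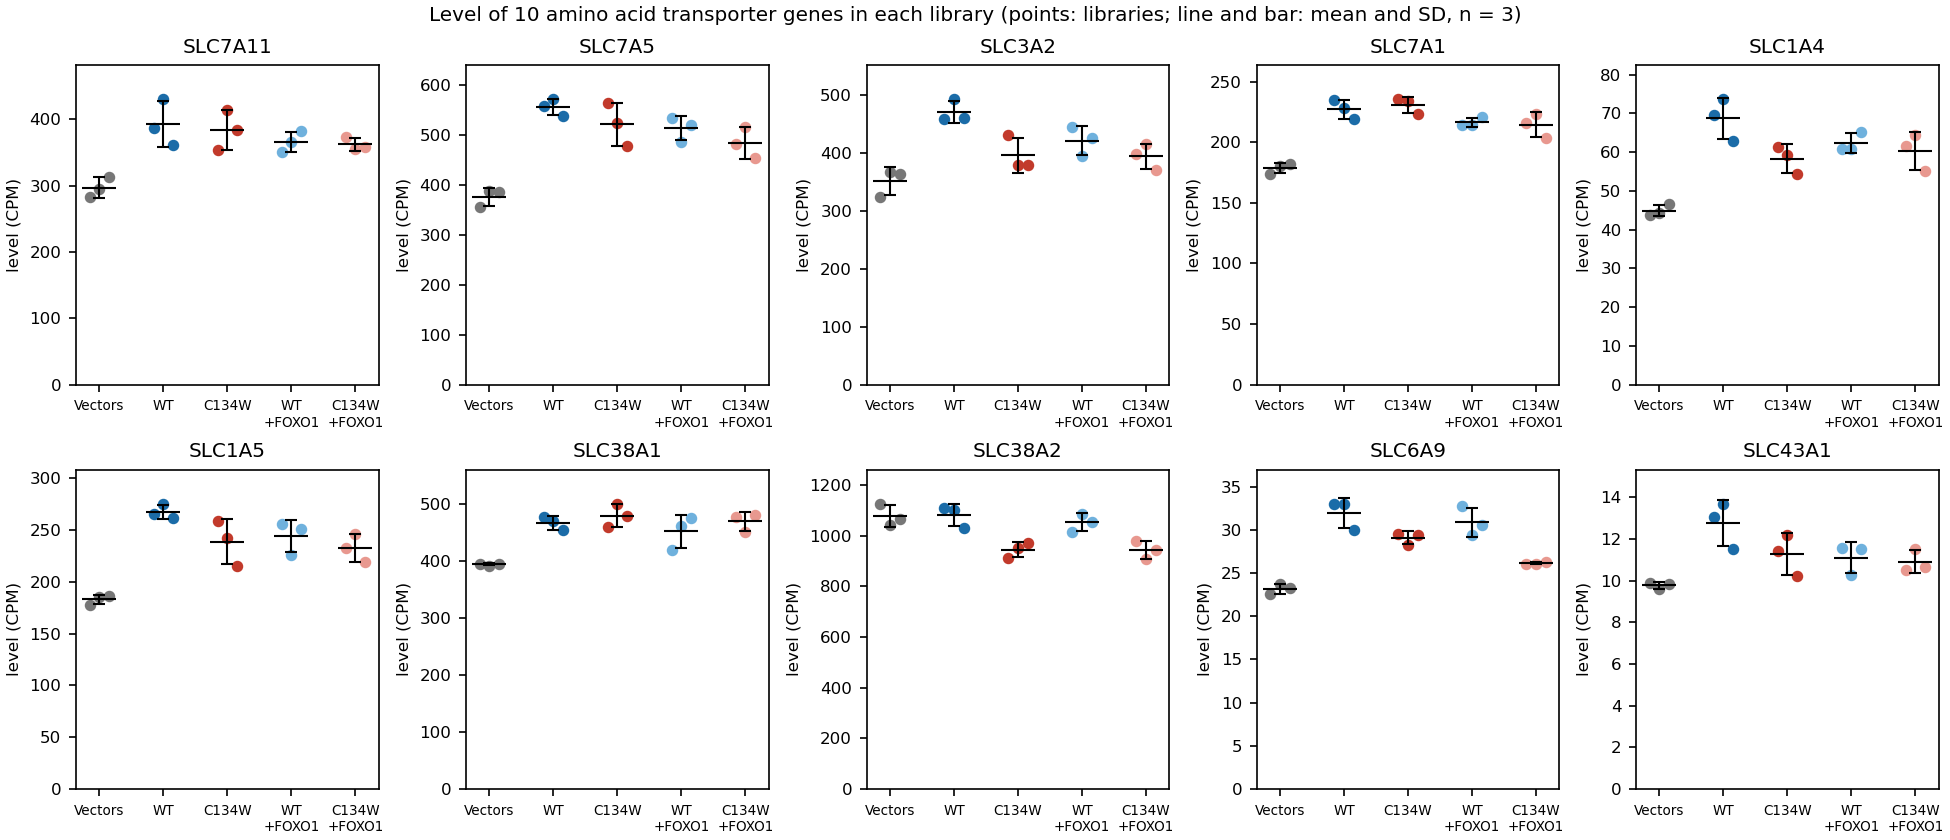
Level in CPM (linear axis from 0) of each transporter in each library, by condition, with the mean and SD of 3 libraries. In 9 panels the Vectors libraries lie below every FOXL2 WT library, and in the SLC38A2 panel these conditions overlap. The share of all genes with libraries apart in this way is not given here.

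The comparison of FOXL2 WT with Vectors asked what SMAD3 and wild-type FOXL2 did to the transporters. All but SLC38A2 rose, 9 of 10, where 2.46% of all genes tested were called higher and 3.61% lower (edgeR quasi-likelihood test, Benjamini-Hochberg adjusted p under 0.05 over all genes). Rises ran from 1.18-fold to 1.52-fold. The median log2 fold change of the 10 was 0.41, against 0.00 for all genes tested. Comparisons with Vectors share the same 3 Vectors libraries, so their values stand side by side and were not counted as separate support.

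SLC3A2 (chromosome 11 of GRCh38, 62856004 to 62888880, plus strand), the CD98 heavy chain, had 323, 367 and 364 CPM in Vectors replicates A, B and C and 458, 492 and 461 CPM under FOXL2 WT. Every FOXL2 WT library lay above every Vectors library. Its log2 fold change was 0.42 (standard error 0.06, edgeR adjusted p = 3.7e-04). In FOXL2 C134W it had 431, 378 and 379 CPM, with replicate A high and no overlap with Vectors, but the log2 fold change of 0.17 (standard error 0.06) was not called (edgeR adjusted p = 0.067). This was called in DESeq2 (adjusted p = 0.034) and with GC content and gene length offsets (edgeR adjusted p = 0.0036), and not with transcript length offsets in DESeq2 (0.08, adjusted p = 0.51). With FOXO1, SLC3A2 was at 444, 394 and 425 CPM under FOXL2 WT + FOXO1, a rise over Vectors of 0.26 (edgeR adjusted p = 0.022), and at 397, 414 and 371 CPM under FOXL2 C134W + FOXO1 (0.16, edgeR adjusted p = 0.10). The call in FOXL2 WT + FOXO1 was lost without Vectors replicate A (edgeR adjusted p = 0.14) and without FOXL2 WT + FOXO1 replicate A (0.091) or C (0.073), and in DESeq2 with transcript length offsets (adjusted p = 0.054).

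SLC7A5 (chromosome 16, 87830023 to 87869507, minus strand), the light chain LAT1 for large neutral amino acids, had 355, 387 and 386 CPM in Vectors. It reached 558, 571 and 538 CPM under FOXL2 WT, 563, 523 and 478 CPM under FOXL2 C134W, 534, 486 and 520.1 CPM under FOXL2 WT + FOXO1 and 481, 516 and 454 CPM under FOXL2 C134W + FOXO1. All 12 transfected libraries lay above the Vectors libraries, while the 4 transfected conditions overlapped each other except FOXL2 WT with each of the FOXO1 conditions. Log2 fold changes over Vectors were 0.56, 0.47, 0.45 and 0.36 in this order (standard error 0.06 each, edgeR adjusted p = 1.5e-05, 3.1e-05, 1.9e-04 and 5.1e-04). Its pseudogene copies SLC7A5P1 (6 to 23 counts) and SLC7A5P2 (0 counts in every library) took few of the reads, although how salmon divides reads between such copies is uncertain.

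SLC7A11 (chromosome 4, 138164097 to 138242349, minus strand), the cystine-glutamate exchanger xCT that supplies cysteine for glutathione, had 282, 296 and 313 CPM in Vectors and 386, 430.0 and 362 CPM under FOXL2 WT. It stood at 354, 414 and 384 CPM under FOXL2 C134W. With FOXO1 it had 351, 366 and 382 CPM under FOXL2 WT + FOXO1 and 373, 355 and 358 CPM under FOXL2 C134W + FOXO1. The transfected conditions overlapped one another and none overlapped Vectors. Log2 fold changes over Vectors were 0.40, 0.37, 0.30 and 0.29 (standard error 0.06 each, edgeR adjusted p = 6.4e-04, 4.8e-04, 0.0083 and 0.0057). The call in FOXL2 WT + FOXO1 was lost without Vectors replicate A (0.27, edgeR adjusted p = 0.066). Its antisense gene SLC7A11-AS1 had 1 to 12 counts.

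SLC7A1 (chromosome 13, 29509414 to 29595688, minus strand), the carrier CAT1 for arginine and lysine, had 174, 180.3 and 182 CPM in Vectors. It had 234, 228 and 219 CPM under FOXL2 WT, 235, 234 and 223 CPM under FOXL2 C134W, 214, 214 and 221 CPM under FOXL2 WT + FOXO1 and 216, 224 and 204 CPM under FOXL2 C134W + FOXO1. Vectors lay apart from all of these. Log2 fold changes over Vectors were 0.34, 0.37, 0.28 and 0.26 (standard error 0.04 each, edgeR adjusted p = 6.2e-05, 1.2e-05, 7.7e-04 and 4.9e-04). Nearly all of its reads, 99.9% to 100% per library, were assigned to the 7343-base transcript whose promoter is shown above.

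Both SLC1 members carry neutral amino acids, SLC1A4 (ASCT1) with serine among them and SLC1A5 (ASCT2) with glutamine. SLC1A4 (chromosome 2, 64988477 to 65023865, plus strand) had 43.8, 44.4 and 46.6 CPM in Vectors and 69.6, 73.6 and 62.9 CPM under FOXL2 WT, the widest change of the 10 genes. The log2 fold change was 0.61 (standard error 0.07, edgeR adjusted p = 3.0e-05). It had 61.4, 59.2 and 54.2 CPM under FOXL2 C134W, 60.8, 60.9 and 65.2 CPM under FOXL2 WT + FOXO1 and 61.5, 64.5 and 55.0 CPM under FOXL2 C134W + FOXO1. These 3 conditions overlapped one another and lay above Vectors, with log2 changes of 0.38, 0.47 and 0.42 (edgeR adjusted p = 9.6e-04, 5.0e-04 and 4.9e-04).

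SLC1A5 (chromosome 19, 46774883 to 46788594, minus strand) had 178, 185 and 186 CPM in Vectors and 265, 276 and 262 CPM under FOXL2 WT, a log2 change of 0.55 (standard error 0.06, edgeR adjusted p = 2.6e-05). It had 259, 242 and 216 CPM under FOXL2 C134W, 256, 226 and 251 CPM under FOXL2 WT + FOXO1 and 233, 246 and 219.7 CPM under FOXL2 C134W + FOXO1. FOXL2 WT was the highest condition and did not overlap the others, and the 3 below it overlapped one another. Their log2 fold changes over Vectors were 0.38, 0.42 and 0.35 (edgeR adjusted p = 2.7e-04, 5.1e-04 and 9.5e-04).

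SLC38A1 and SLC38A2, or SNAT1 and SNAT2, are the system A carriers for glutamine and other small neutral amino acids. SLC38A1 (chromosome 12, 46183063 to 46270017, minus strand) had 394, 391 and 395 CPM in Vectors, 476, 469 and 453 CPM under FOXL2 WT, 459, 499.6 and 477 CPM under FOXL2 C134W, 419, 460.1 and 475 CPM under FOXL2 WT + FOXO1 and 477, 450.2 and 479 CPM under FOXL2 C134W + FOXO1. Vectors lay below every other library, and the transfected conditions overlapped. Its rises were the smallest of those called, with log2 changes of 0.24, 0.28, 0.20 and 0.25 (standard error 0.05 each, edgeR adjusted p = 0.0031, 3.4e-04, 0.017 and 0.0013). The call in FOXL2 WT + FOXO1 was lost without any one Vectors library and without FOXL2 WT + FOXO1 replicate B or C (edgeR adjusted p from 0.059 to 0.093).

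SLC38A2 (chromosome 12, 46358188 to 46372773, minus strand) had 1127, 1043 and 1065 CPM in Vectors and 1111, 1103 and 1033 CPM under FOXL2 WT, with a log2 change of 0.01 (95% interval -0.08 to 0.09, edgeR adjusted p = 0.96). In FOXL2 C134W it had 914, 950.4 and 972 CPM, and in FOXL2 C134W + FOXO1 979.7, 908 and 944 CPM. Both C134W conditions lay below all Vectors, FOXL2 WT and FOXL2 WT + FOXO1 libraries, the last of which had 1017, 1088 and 1055 CPM. Against Vectors SLC38A2 fell by 0.19 on the log2 scale in each C134W condition (standard error 0.04, edgeR adjusted p = 0.0049 without and 0.0068 with FOXO1), where 7.24% and 5.16% of all genes were called lower. In DESeq2 with transcript length offsets these were -0.12 and -0.10 and were not called (adjusted p = 0.12 and 0.28). The TPM ratio of SLC38A2 to SLC38A1 was 5.97 ± 0.324 (SD, n = 3) in Vectors, 5.004 ± 0.230 in FOXL2 WT and 4.15 ± 0.317 in FOXL2 C134W, with no overlap between these conditions. Between FOXL2 C134W and FOXL2 WT, the log2 differences of SLC38A2 and SLC38A1 were -0.20 and 0.04. With GC content and gene length offsets, which TPM does not carry, they were -0.20 and -0.10.

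SLC6A9 (chromosome 1, 43991500 to 44031467, minus strand), the glycine carrier GlyT1, had 22.5, 23.7 and 23.3 CPM in Vectors and 33.0, 33.0 and 30.0 CPM under FOXL2 WT, a log2 change of 0.46 (standard error 0.06, edgeR adjusted p = 9.9e-05). It had 29.6, 28.3 and 29.4 CPM under FOXL2 C134W (0.33, edgeR adjusted p = 8.7e-04) and 32.7, 29.4 and 30.5 CPM under FOXL2 WT + FOXO1 (0.41, edgeR adjusted p = 4.9e-04). In FOXL2 C134W + FOXO1 it had 26.1, 26.0 and 26.2 CPM, below every library of the other transfected conditions and above Vectors, and the difference from Vectors of 0.17 was not called (edgeR adjusted p = 0.074). It was called with GC content and gene length offsets (0.20, edgeR adjusted p = 0.027) and in DESeq2 with transcript length offsets (0.39, adjusted p = 0.026). In FOXL2 C134W the call was lost in DESeq2 with transcript length offsets (0.33, adjusted p = 0.069).

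SLC43A1 (chromosome 11, 57484534 to 57515780, minus strand), the carrier LAT3 for large neutral amino acids, had 9.90, 9.59 and 9.84 CPM in Vectors and 13.04, 13.7 and 11.5 CPM under FOXL2 WT. The log2 fold change was 0.38 (standard error 0.09, edgeR adjusted p = 0.018), and it was not called without any one Vectors library or without FOXL2 WT replicate A or B (0.32 to 0.38, edgeR adjusted p from 0.050 to 0.10), nor in DESeq2 with transcript length offsets (0.48, adjusted p = 0.19). It had 11.4, 12.2 and 10.2 CPM under FOXL2 C134W, 11.6, 10.2 and 11.5 CPM under FOXL2 WT + FOXO1 and 10.5, 11.5 and 10.7 CPM under FOXL2 C134W + FOXO1. These lay just above Vectors, with log2 changes of 0.21, 0.18 and 0.16 that were not called (edgeR adjusted p = 0.13, 0.33 and 0.30). The share that salmon gave to its leading transcript ran from 0% to 92.8% between libraries, and for SLC6A9 from 0% to 73.6%, so the transcripts of these genes are uncertain and both were read at the gene level.

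**Figure D2:**
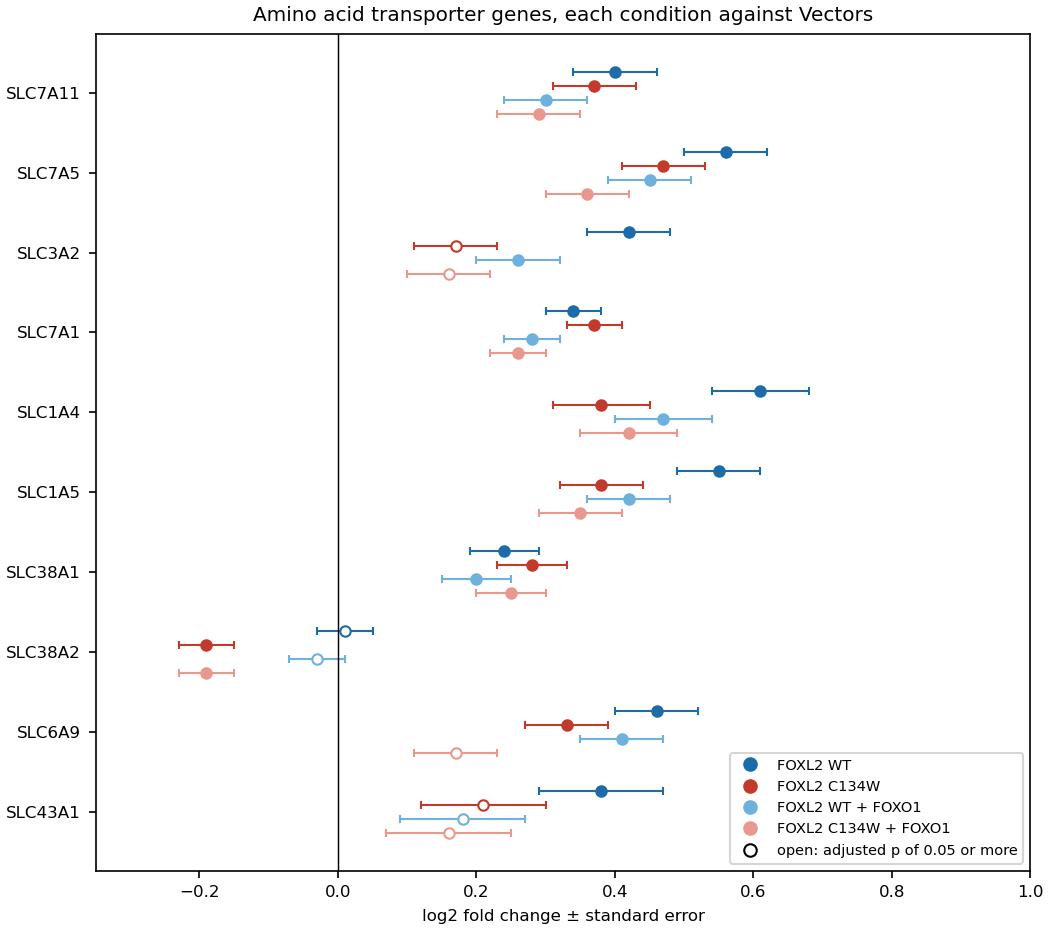
Log2 fold change with its standard error of each transporter against Vectors in the 4 transfected conditions. Filled symbols passed the threshold (adjusted p under 0.05). SLC38A2 is at 0.01 in FOXL2 WT and at -0.19 in both C134W conditions, while the other genes lie to the right of 0 in all 4 conditions.

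Counted over the 10 genes, FOXL2 C134W had 7 transporters higher than Vectors, where 7.48% of all genes were called higher, and 1 lower. FOXL2 WT + FOXO1 had 8 higher, where 1.41% of all genes were called higher and 2.37% lower, and FOXL2 C134W + FOXO1 had 6 higher, where 4.17% were, and 1 lower. The median log2 fold change over Vectors was 0.35, 0.29 and 0.26 in these 3 conditions, against 0.00 for all genes in each. With GC content and gene length offsets it was 0.26, 0.34 and 0.22, and in FOXL2 WT it was 0.42 in place of 0.41. Without Vectors replicate A the count in FOXL2 WT + FOXO1 was 5, as SLC7A11, SLC3A2 and SLC38A1 were no longer called.

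FOXL2 C134W was next set against FOXL2 WT. These conditions also differed in FOXL2 RNA (147 against 561 CPM) and SMAD3 RNA (843 against 2768 CPM), so the mutation and these amounts cannot be told apart. Here 3 of 10 transporters were lower and 0 higher, where 4.12% of all genes were called lower and 7.13% higher. SLC3A2 fell by 0.25 on the log2 scale (standard error 0.06, edgeR adjusted p = 0.013), SLC1A4 by 0.23 (standard error 0.07, edgeR adjusted p = 0.030) and SLC38A2 by 0.20 (standard error 0.04, edgeR adjusted p = 0.0056). For all 3 the FOXL2 C134W libraries lay below every FOXL2 WT library. The other 7 lay between -0.17 and 0.04 (edgeR adjusted p from 0.089 to 0.79). For SLC7A11 the 95% interval ran from -0.15 to 0.09, for SLC7A1 from -0.06 to 0.10 and for SLC38A1 from -0.05 to 0.13. SLC1A5 at -0.16 and SLC6A9 at -0.13 also had libraries that did not overlap, and at an unadjusted p under 0.05 the count was 5 of 10, where 25.5% of all genes were. The share of all genes whose libraries did not overlap is not given here, so the lack of overlap only describes these genes.

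The calls of this comparison changed with single libraries and with offsets for gene composition. SLC38A2 was called without any one of the 6 libraries. SLC3A2 and SLC1A4 were not called without FOXL2 WT replicate B (edgeR adjusted p = 0.087 and 0.18), FOXL2 C134W replicate B (0.088 and 0.088) or FOXL2 C134W replicate C (0.071 and 0.15), which left 1 transporter called, and SLC1A4 also not without FOXL2 WT replicate A (edgeR adjusted p = 0.096). SLC1A4 was also not called in DESeq2 with transcript length offsets (-0.16, adjusted p = 0.39), and SLC1A5 was called when genes with 1 count in any library were kept (edgeR adjusted p = 0.012). When the fit carried offsets for GC content and gene length, 8 of 10 were called lower, all but SLC6A9 and SLC43A1. The median of the 10 was -0.2 with these offsets, against -0.01 for all genes. The share of all genes called lower with these offsets is not given here. SLC7A11 then stood at -0.21 (edgeR adjusted p = 0.0088), SLC7A5 at -0.19 (0.015) and SLC1A5 at -0.21 (0.0060), and SLC7A1 and SLC38A1, which were at 0.02 and 0.04 without offsets, turned to -0.15 (edgeR adjusted p = 0.037) and -0.10 (0.043). The weighted transcript length was 9203 bases with 35.7% GC for SLC7A11, 7325 bases for SLC7A1 and 6539 bases for SLC38A1, the longest of the 10. Their part in the shift was not tested.

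**Figure D3:**
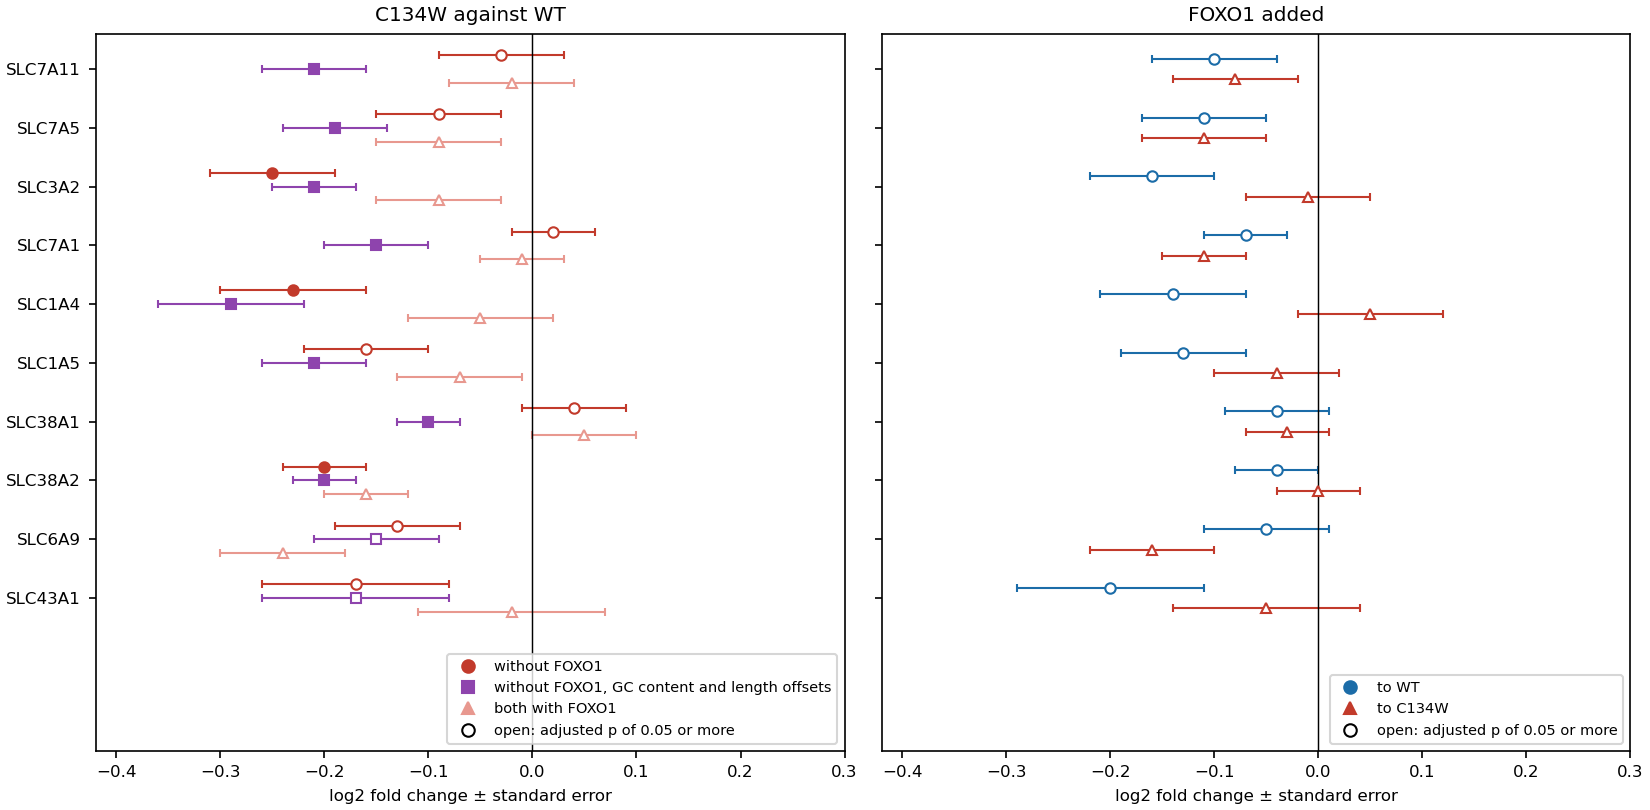
Log2 fold change with its standard error of each transporter between the FOXL2 forms (left: without FOXO1, the same with GC content and gene length offsets, and with FOXO1 in both) and on adding FOXO1 to each form (right). Filled symbols passed the threshold. The circles of SLC7A1 and SLC38A1 lie at 0.02 and 0.04 and their squares, with offsets, at -0.15 and -0.10.

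With FOXO1 in both conditions, 0 of 10 transporters were called between FOXL2 C134W + FOXO1 and FOXL2 WT + FOXO1, where 0.144% of all genes were called in either direction (edgeR). At an unadjusted p under 0.05 there were 2, where 13.5% of all genes were: SLC38A2 at -0.16 (edgeR adjusted p = 0.17) and SLC6A9 at -0.24 (edgeR adjusted p = 0.12). For both the libraries did not overlap in CPM, and SLC6A9 was at -0.10 in DESeq2 with transcript length offsets (adjusted p = 0.85). DESeq2 called 1, SLC38A2 (adjusted p = 0.047), which was also called with GC content and gene length offsets (-0.21, edgeR adjusted p = 0.0035). Differences of the 10 ran from -0.24 to 0.05.

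The conditions with FOXO1 also held less SMAD3 and, for the WT form, less FOXL2 RNA than those without it (SMAD3 969 against 2768 CPM and FOXL2 384 against 561 CPM with FOXL2 WT, SMAD3 392 against 843 CPM with FOXL2 C134W), so FOXO1 and these amounts cannot be told apart. Adding FOXO1 to FOXL2 WT called 0 of 10 transporters, where 0.0505% of all genes were called (edgeR). All 10 log2 fold changes lay below 0, between -0.20 and -0.04, with a median of -0.11 against 0.00 for all genes. At an unadjusted p under 0.05 there were 3, where 9.13% of all genes were: SLC3A2 (-0.16), SLC1A5 (-0.13) and SLC43A1 (-0.20). DESeq2 called 0. SLC3A2 was called when genes with 1 count in any library were kept (edgeR adjusted p = 0.038).

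Adding FOXO1 to FOXL2 C134W also called 0 of 10, where 0.714% of all genes were called (edgeR), with 2 at an unadjusted p under 0.05, SLC7A1 (-0.11) and SLC6A9 (-0.16), where 11.2% of all genes were, and 0 in DESeq2. The FOXL2 C134W + FOXO1 libraries of SLC6A9 lay below those of FOXL2 C134W in CPM but not in TPM, where they had 18.33, 19.77 and 19.24 against 18.55, 18.44 and 18.38 TPM, and its log2 difference was 0.06 in DESeq2 with transcript length offsets (adjusted p = 0.97). The range over the 10 was -0.16 to 0.05 and the median -0.04. In the interaction, the effect of FOXO1 in the C134W form minus that in the WT form, 0 of 10 were called, where 1.38% of all genes were (edgeR), with 0 at an unadjusted p under 0.05, where 1736 of the 13868 genes were, and 0 in DESeq2. The largest differences were those of SLC1A4 (0.18, 95% interval -0.00 to 0.37) and SLC3A2 (0.15, 95% interval -0.02 to 0.32).

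Because light chains need the heavy chain, the ratio of SLC7A5 to SLC3A2 was followed in TPM. It was 0.369, 0.338 and 0.350 in Vectors, 0.390, 0.389 and 0.391 in FOXL2 WT and 0.458, 0.458 and 0.404 in FOXL2 C134W. The conditions did not overlap, and in both FOXO1 conditions the mean was 0.397. Each of these 3 differences had p = 0.1 in a two-sided exact permutation test, the smallest that 3 libraries against 3 allow, and 0.133 adjusted over 12 ratio tests, so none could pass. The ratio of SLC7A11 to SLC3A2 was 0.112 ± 0.0094 (SD, n = 3) in FOXL2 WT and 0.130 ± 0.017 in FOXL2 C134W and overlapped between them, as did that of SLC1A5 to SLC1A4 at 5.92 ± 0.135 and 5.72 ± 0.427. Against Vectors the ratio of SLC1A5 to SLC1A4 (6.33 ± 0.209 in Vectors) did not overlap with either form, and that of SLC7A11 to SLC3A2 (0.104 ± 0.0011 in Vectors) did not overlap with FOXL2 C134W, each again at p = 0.1 in the exact permutation test.

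**Figure D4:**
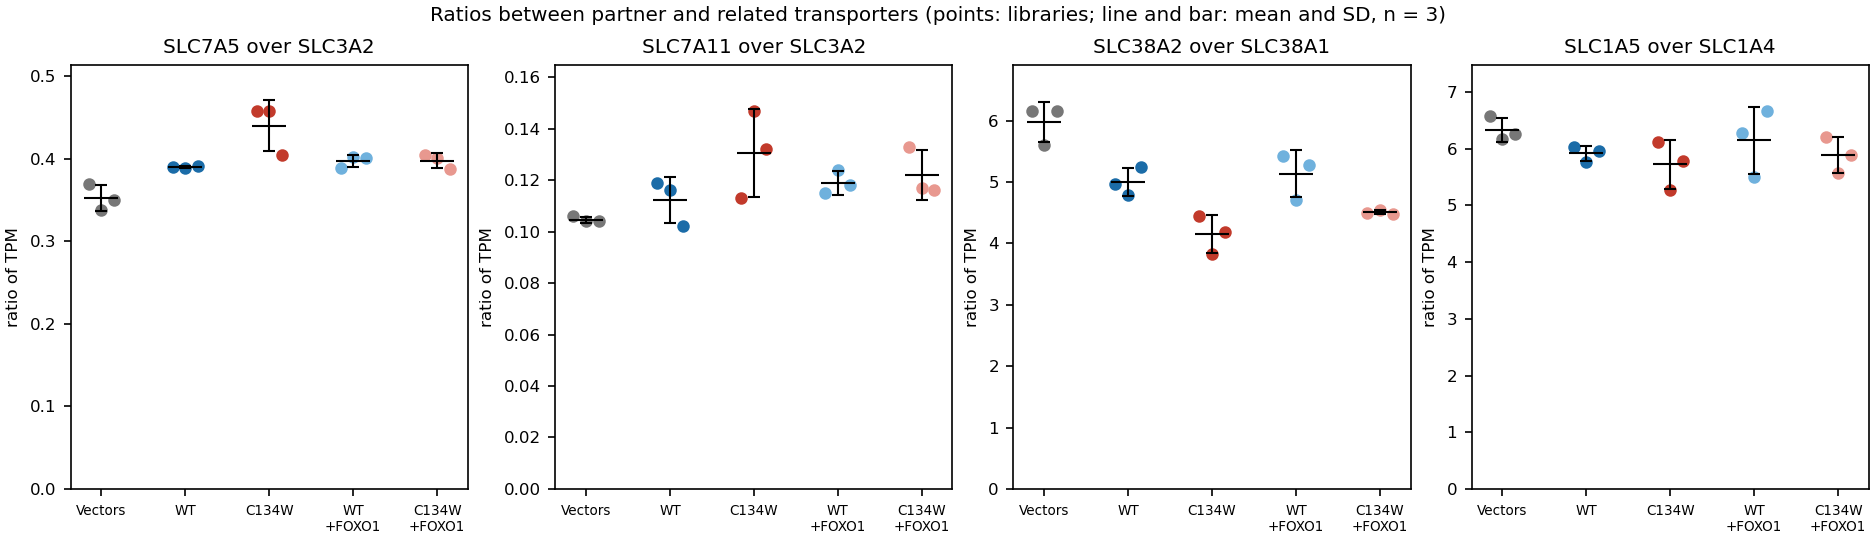
Ratio of the TPM of paired transporters in each library (linear axis from 0), with the mean and SD of 3 libraries per condition and without GC content and gene length offsets. SLC7A5 over SLC3A2 is 0.353, 0.390 and 0.440 and SLC38A2 over SLC38A1 is 5.97, 5.004 and 4.15 as means in Vectors, FOXL2 WT and FOXL2 C134W.

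Other amino acid carriers were counted beside the 10. Of 34 other amino acid transporters 21 were tested. In FOXL2 WT against Vectors 1 was higher, the exchanger SLC7A6 at 0.175, and 0 lower, with a median of -0.08. Of all genes, 2.46% were higher and 3.61% lower there. In FOXL2 C134W against Vectors 0 were higher and 2 lower, with a median of -0.02, where 7.48% of all genes were higher and 7.24% lower. FOXL2 C134W against FOXL2 WT gave 1 lower and 0 higher of the 21, where 4.12% of all genes were lower and 7.13% higher, so the lower count was near that share. The lower gene was the glutamine carrier SLC38A5, at -0.26 (standard error 0.08, edgeR adjusted p = 0.047). SLC1A3 and SLC7A7 were not called (log2 differences -0.19 and -0.35, edgeR adjusted p = 0.074 and 0.10). These counts describe the lists, and the difference between them was not tested.

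Genes of the amino acid response, which act with, upstream or downstream of ATF4, were counted in the same way. Of 33 tested, 27 were higher and 0 lower in FOXL2 WT than in Vectors, with a median log2 fold change of 0.43. There were 21 higher and 1 lower in FOXL2 C134W (median 0.26), 22 higher and 0 lower in FOXL2 WT + FOXO1 (0.33) and 19 higher and 3 lower in FOXL2 C134W + FOXO1 (0.24). FOXL2 C134W had 17 of these genes below FOXL2 WT and 1 above it, with a median of -0.20 against -0.01 for all genes. Of all genes, 2.46% were higher in the first of these comparisons, 7.48%, 1.41% and 4.17% in the next 3, and 4.12% were lower in the last. The stress factor ATF3 fell from 41.7 to 21.5 CPM (-0.95, standard error 0.08, edgeR adjusted p = 5.8e-07), DDIT4, an inhibitor of mTORC1, from 142 to 116 CPM (-0.29, edgeR adjusted p = 0.0022) and the serine-to-glycine enzyme SHMT2 from 332 to 280 CPM (-0.25, edgeR adjusted p = 0.0025).

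Genes of NRF2 and glutathione, to which SLC7A11 also belongs by function, were a further list. Of 20 tested, 1 was higher and 0 lower in FOXL2 WT than in Vectors, with a median of 0.04, where 2.46% of all genes were higher and 3.61% lower. In FOXL2 C134W 4 were lower and 1 higher than in FOXL2 WT, where 4.12% of all genes were lower and 7.13% higher, with the heme-degrading enzyme HMOX1 at -0.34 (edgeR adjusted p = 0.0062), the ferritin light chain FTL at -0.23 and the exporter ABCC1 at 0.24 (edgeR adjusted p = 0.0070 each). Of 24 tested genes of mTORC1 amino acid sensing, 0 were called in FOXL2 WT against Vectors, with a median of 0.01. In FOXL2 C134W 4 were higher and 4 lower than in FOXL2 WT, where 7.13% of all genes were higher and 4.12% lower, among them the mTORC1 scaffold RPTOR at 0.38 (edgeR adjusted p = 4.0e-04) and the Rag GTPases RRAGC at -0.27 (edgeR adjusted p = 0.0052) and RRAGA at -0.21 (edgeR adjusted p = 0.012).

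**Figure D5:**
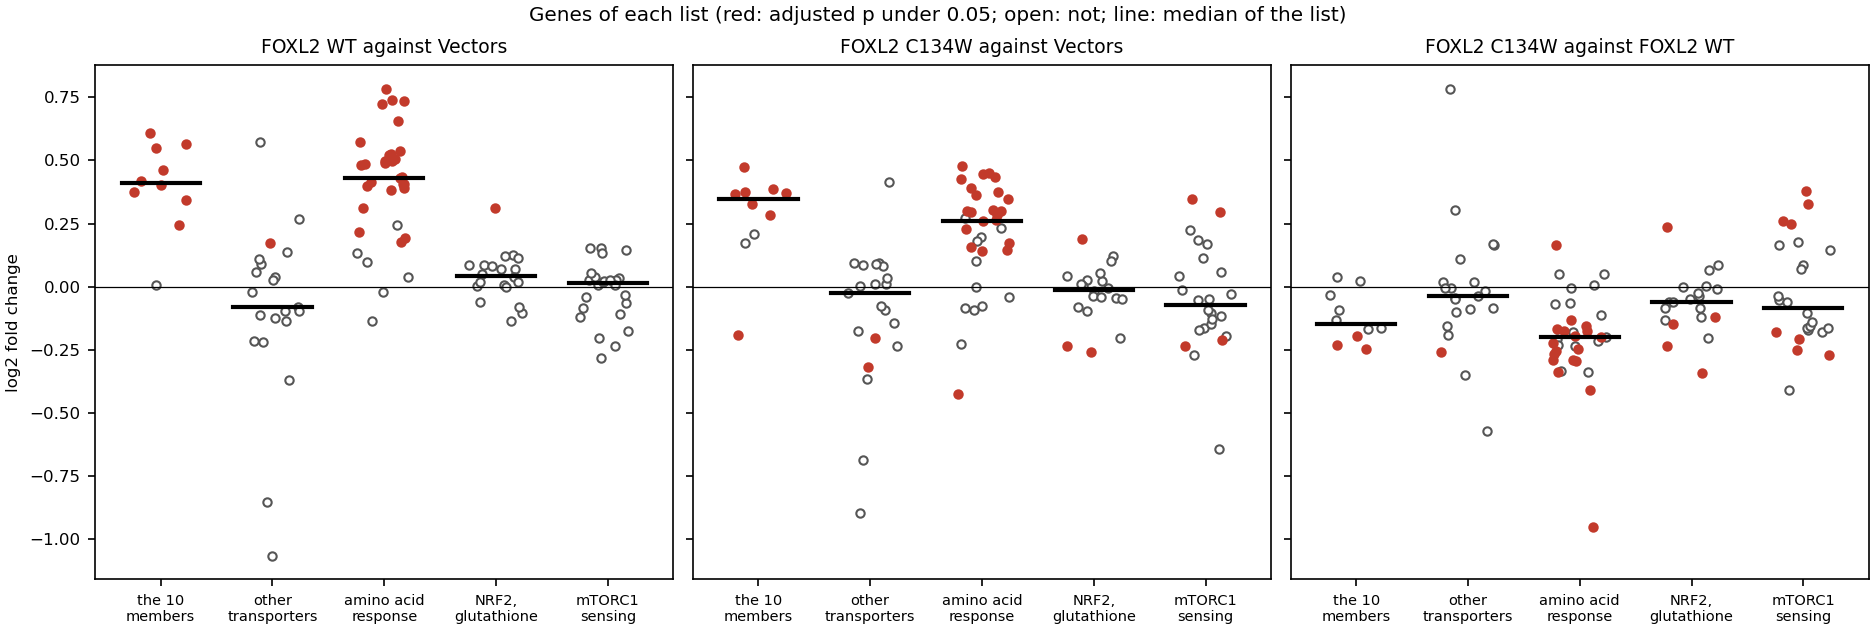
Log2 fold change of every tested gene of each list in 3 comparisons. Red points passed the threshold and the black line is the median of the list, which in FOXL2 WT against Vectors is 0.41 for the 10 transporters, 0.43 for the amino acid response and -0.08 for other amino acid transporters.

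As a description over the 15 libraries, the genes whose log2-CPM followed that of SLC1A4 most closely were ASNS (Pearson r = 0.963), PSAT1 (0.961) and MTHFD2 (0.961), and those closest to SLC7A5 were PHGDH (0.965), PSAT1 (0.964) and PCK2 (0.961). These are enzymes of asparagine, serine and folate metabolism or gluconeogenesis. All 5 were on the amino acid response list, as were 33 of the 13868 genes tested. That list was chosen with earlier results of these data known, so this gives no separate support. ASNS averaged 147 CPM in Vectors, 245 CPM under FOXL2 WT and 200 CPM under FOXL2 C134W. Among the 10 transporters, SLC7A5 and SLC1A5 had the closest pattern (r = 0.985), and the median r of SLC38A2 with the other 9 was -0.194. The points share libraries and conditions, so these values only describe likeness.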

How the data were processed

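RNA-seq of 15 HGrC1 libraries (75-bp single-end reads of stranded mRNA) was used, with conditions and replicate letters taken from the labels. The authors ran Salmon 1.1.0 on hg38 transcripts, summed the estimated counts to genes and deposited them as whole numbers without normalization. Their deposited TPM values per transcript, which salmon scales to a fixed total, were used only for levels per length, ratios and transcript length offsets. The strand setting of salmon and the annotation release are not given in the sources used here, so gene positions come from GENCODE 44 on GRCh38 by identifier. In R 4.3.3, all 15 libraries were fitted together with edgeR 4.0.16 (TMM, filterByExpr, quasi-likelihood test, adjusted p under 0.05). Standard errors are the log2 fold change divided by the square root of F, and 95% intervals are 1.96 standard errors. log2-CPM had a prior count of 2. Library totals of 14962245 to 25339094 estimated counts and at least 172 counts per transporter and library leave the spread between replicates as the main error. The labels letter the replicates without naming separate cultures, so p-values measure only the spread between these libraries. No replicate pair agreed within counting noise (chi-square per degree of freedom 2.2 to 8.86).

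All 10 transporters are named with their level in every library, called ones with their fold change, and of each list at most the 3 genes with the smallest adjusted p in FOXL2 C134W against FOXL2 WT. For the 2 transporters with the widest span of condition means, the 3 genes with the highest r are named. The genes examined and the lists were chosen with earlier results of these data known. SLC7A6 was named outside this rule, after its value was seen. Alternatives were DESeq2 1.42.0, DESeq2 with transcript length offsets, its size factors, filters of 1 count in any library or 10 in every library, only the conditions compared, a replicate block, GC content and gene length offsets (lowess span 0.3), both together, each library left out, and a prior count of 0.5.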

Additional observations from a re-analysis of the deposited data

How the results depend on the processing

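Of 35 calls of a transporter in a comparison, none reversed. Over the alternatives of test, filter, scaling, offset and block, 309 of 315 values stayed called in the same direction and 6 did not pass the threshold, all 6 in DESeq2 with transcript length offsets. Without 1 library, 189 of 210 stayed called. None of 50 mean log2-CPM values moved by more than 1 SD with a prior count of 0.5. The count of called transporters in FOXL2 C134W against FOXL2 WT was 8 in place of 3 with GC content and gene length offsets, with or without the replicate block, 4 with a filter of 1 count in any library, 2 in DESeq2 with transcript length offsets, and 1 to 4 without 1 library. In FOXL2 WT + FOXO1 against Vectors it was 5 to 7 without 1 library, against 8. In FOXL2 C134W + FOXO1 against FOXL2 WT + FOXO1 it was 1 in place of 0 in DESeq2, with a filter of 1 count in any library, and with GC content and gene length offsets with or without the replicate block. In FOXL2 WT + FOXO1 against FOXL2 WT it was 1 in place of 0 with a filter of 1 count in any library. The shares of all genes called under these alternatives are not given here, and the cause of these moves was not tested. The replicate block alone gave 9, 8, 8, 7 and 3 called transporters in the 4 comparisons with Vectors and in FOXL2 C134W against FOXL2 WT, the same as without it, and 0 in the other comparisons. Same-lettered libraries did not in general deviate together (median correlation 0.021 over 30 pairs, against 0.027 over 60 pairs of other letters), so the letters were not taken to pair samples. An exception was replicate A of FOXL2 C134W with replicate A of FOXL2 WT + FOXO1, at 0.453, where pairs of other letters reached at most 0.303. With 3 libraries per condition and standard errors of 0.04 to 0.09, log2 differences well above the standard error were not called. They reached -0.24 for SLC6A9 between the FOXL2 forms with FOXO1. For SLC43A1 the difference was -0.20 on adding FOXO1 to FOXL2 WT. A count of 0 called therefore does not show that differences of this size were absent.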
